A study of Mus musculus with 69 samples.

Results

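Ribosome-bound mRNA of Camk2a-expressing neurons in primary visual cortex (V1) was compared between Fmr1 knockout (KO) and wild-type (WT) mice. The comparison held 14 of the 69 libraries of the series, chosen by the cell class and area in the library names, with 6 KO and 8 WT libraries, each from a different animal. All mice carried Camk2a-Cre and Rpl22 HA/HA and were 70 to 100 days old. By label, 2 KO and 2 WT animals were male, and 4 KO and 6 WT animals were female. The labels place all 14 in Batch 1. KO animals are numbered from C3 to C14 and WT animals from C15 to C24, apart from WT C1. Number and genotype thus largely coincide, and the labels do not say whether the numbers follow an order of handling. Both genotypes therefore carried the Cre driver and the tagged ribosomal protein, and the labelled difference between the groups is Fmr1. In such RiboTag mice, Cre recombination puts an HA tag on the ribosomal protein RPL22 in cells that express the driver, and precipitation of the tag from V1 homogenate recovers the mRNA on their ribosomes along with some RNA of other cells. Camk2a-Cre marks mainly excitatory pyramidal neurons of every cortical layer, so a library mixes several neuron types, and a change in ribosome-bound mRNA can come from the mRNA level or from its loading on ribosomes. Depth was 43.3 ± 3.32 M estimated counts (SD, n = 6) in KO and 40.5 ± 2.35 M (n = 8) in WT libraries.

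Fmr1 encodes FMRP, an RNA-binding protein that associates with polyribosomes and represses or stalls the translation of many neuronal mRNAs. Loss of the protein in people causes fragile X syndrome, an inherited form of intellectual disability often accompanied by autism. In pyramidal neurons FMRP is found in the soma and at dendrites, where many of its mRNA targets encode long synaptic and chromatin proteins. V1 is a cortical area in which sensory responses and plasticity are studied in Fmr1 KO mice.

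The labelled cell class was checked against markers, on normalised counts relative to library size (CPM), here scaled over all 69 libraries. Slc17a7, the vesicular glutamate transporter of cortical excitatory neurons, lay between 2278 and 2812 CPM in the 14 libraries, against 135 to 343 CPM in the 20 libraries from PV interneurons of V1. Markers of microglia and vessels were near 0, with Cx3cr1 at most 1.54 CPM and Cldn5 at most 0.75 CPM. Gad1, the GABA-synthesizing enzyme of inhibitory neurons, lay between 14.3 and 33.1 CPM in 11 libraries. It reached 172 CPM in KO animal C3, and 357 and 407 CPM in WT animals C18 and C19, against a median of 3246 CPM in PV libraries. Over the 14 PV interneuron markers, the mean log2 CPM was 4.82, 5.85 and 5.82 in C3, C18 and C19 and 2.27 to 2.85 in the other 11.

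A few libraries went against their labels. An area score, built from genes that separate V1 and S1 libraries with the scored animal left out, was 0.22 to 1.84 in 13 of the V1 libraries and −0.91 to −1.64 in the Camk2a S1 libraries other than that of C24. The library labelled V1 of WT animal C24 scored −1.15, on the S1 side, and the library labelled S1 of the same animal scored 1.50. The library labelled male of WT animal C16 held 0 CPM of the Y-linked gene Ddx3y, and the library labelled female of WT animal C23 held 38.8 CPM. Prox1, a transcription factor listed here as an interneuron marker and known also from granule cells of the dentate gyrus, stood at 20.7 and 24.1 CPM in KO animals C4 and C5 and at 0.282 to 0.897 CPM in the other 12 libraries. Its log2 fold change was 3.62 and did not pass (edgeR adjusted p = 0.124). Every library was kept in its labelled group in the main test, and results without these libraries are given where that changed them. Of the 50 named genes that were called, 7 kept the call without C3, C18 and C19 (Fmr1, Fam160a1, Ccnd2, Alox8, Pcdhga9, Tcap and Zfp423), 49 without C24 once sex was read from Ddx3y, 5 without C16 and C23, and Fmr1 alone without C4 and C5. All 50 kept their direction in these fits, and each of the other 43 had an adjusted p above 0.05 without C3, C18 and C19.

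**Figure D1:**
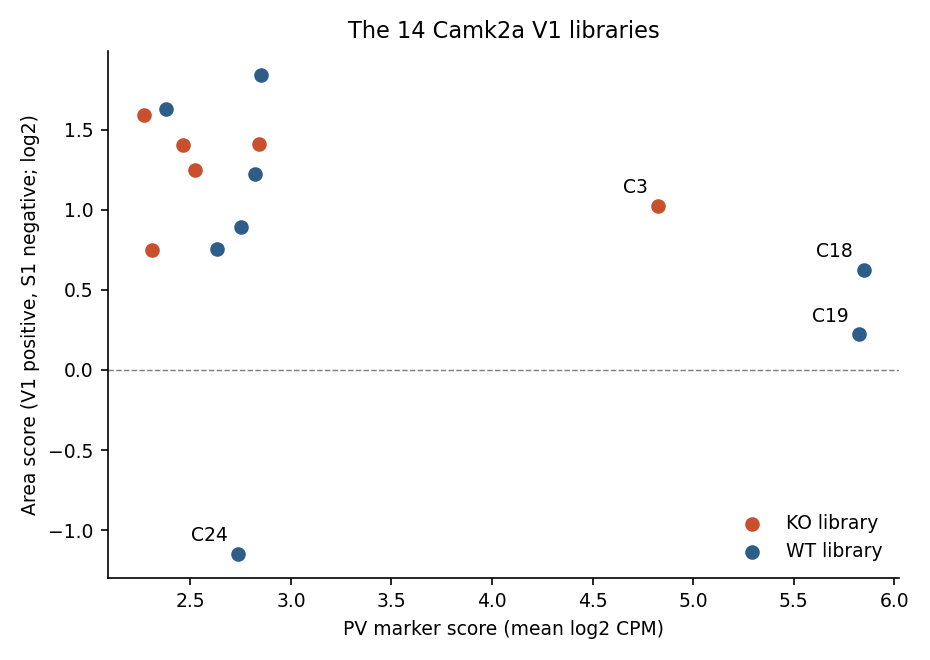
Each point is 1 of the 14 Camk2a V1 libraries, with the mean log2 CPM of PV interneuron markers on the horizontal axis and the area score (log2, V1 positive) on the vertical axis. C3, C18 and C19 stand to the right of the other 11, and C24 lies below 0.

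Of 16147 genes tested, 223 (1.38%) passed an adjusted p of 0.05 by edgeR's quasi-likelihood test with Benjamini-Hochberg adjustment. In KO libraries 99 genes (0.613%) were higher and 124 (0.768%) were lower. Changes were small: the median log2 fold change (KO minus WT) was 0.37 among the higher and −0.58 among the lower genes, and the fold change exceeded 1 log2 unit in 4 higher and 32 lower genes. The KO and WT libraries did not overlap in 104 of the 223 genes, against 165 genes (1.02%) over all tested. The p-values measure the spread between these animals, and bulk libraries cannot tell fewer cells of a type from less RNA per cell. Many calls lay close to the threshold, with 104 of them at an adjusted p above 0.04. In the 11 libraries left without C3, C18 and C19, 15 genes were called, 14 of them among the 223. Without C16 and C23, 10 were called, all among the 223. Without C4 and C5, in which Prox1 stands apart, 3 were called, Fmr1, Agmat and Stat4. Without C24, 351 were called, 213 of them shared. All 223 kept their direction in each of these 4 fits in which they were tested. Other single libraries moved the count by more than 1.5 times as well: it fell to between 20 and 122 without C7, C4, C16, C5, C19, C15, C3, C23, C18 or C20, and rose to 372 without C6 and 456 without C14.

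**Figure D2:**
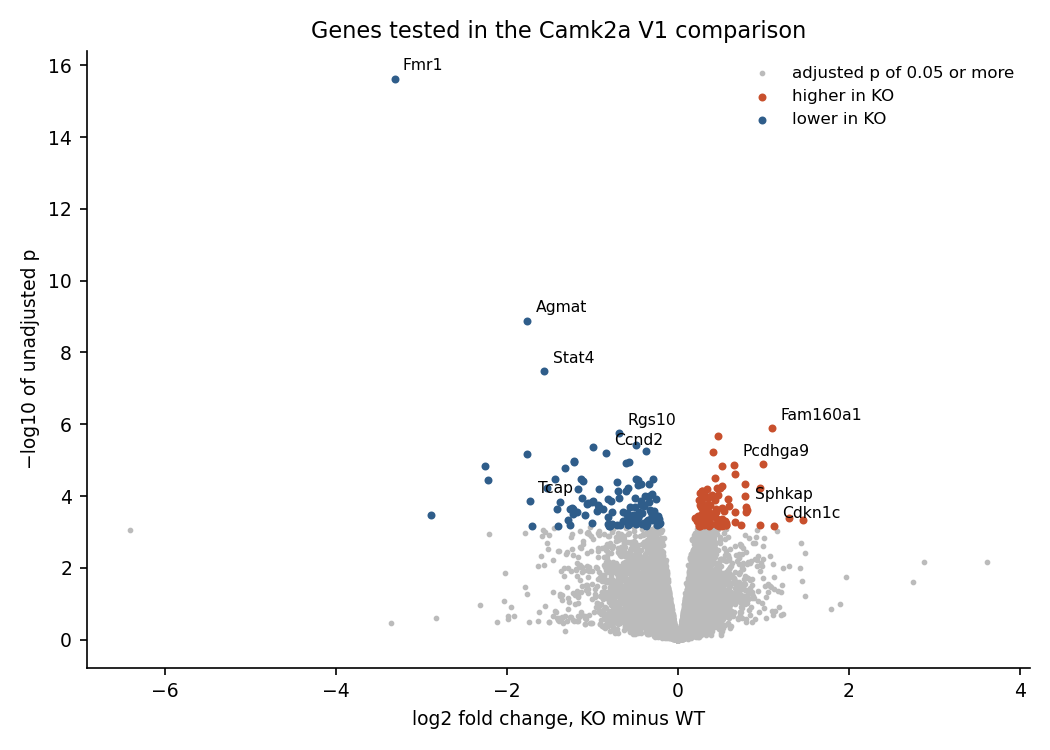
Each point is a gene tested, with the log2 fold change (KO minus WT) on the horizontal axis and −log10 of the unadjusted p on the vertical axis. The 99 genes called higher and 124 called lower are coloured, and Fmr1 lies at −3.31.

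Fmr1 expression separated the genotypes, which checks the labels. The gene spans 68678541 to 68717963 on the plus strand of chromosome X (mm10; ENSMUSG00000000838), and its level was 6.26, 8.05 and 10.1 CPM (lowest, median and highest) in KO and 71.6, 82.2 and 90.2 CPM in WT. The groups did not overlap, and the log2 fold change was −3.31 (SE 0.099, edgeR adjusted p = 3.87e-12). Its paralogs Fxr1 and Fxr2 and its partners Cyfip1 and Cyfip2, which link FMRP to translation initiation and actin, had log2 fold changes of −0.01, 0.04, 0.10 and −0.07, and none passed. Of the 12 genes in the list of Fmr1, its paralogs and partners, Fmr1 was the only one called. Within 5 Mb of Fmr1, 36 other genes were tested and 1 was called, beside 1.38% of all genes and 1.36% of chromosome X. That gene was Cd99l2 (chromosome X, 71420060 to 71492849), which encodes a membrane glycoprotein. It lay at 101.6, 104.2 and 106.7 CPM in KO and at 81.5, 86.0 and 97.4 CPM in WT, with no overlap (log2 fold change 0.25, SE 0.050, edgeR adjusted p = 0.0307). Its adjusted p was 0.156 without C3, C18 and C19. Cd99l2 was also called in PV V1 (0.51, edgeR adjusted p = 1.06e-07) and in Camk2a S1 (0.30, adjusted p = 0.00269).

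Rapgef4 (chromosome 2, 71981240 to 72257474), the gene of the cAMP sensor EPAC2 that loads the small GTPase Rap with GTP, was not called. It lay at 197.9, 227.0 and 244.2 CPM in KO and at 185.9, 199.7 and 252.8 CPM in WT, so the groups overlapped, and 5 of 6 KO libraries lay above the WT mean. The log2 fold change was 0.14 (SE 0.071, edgeR adjusted p = 0.304). The highest WT value belonged to C24, and without it the fold change was 0.19 (adjusted p = 0.0831).

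Apart from Fmr1, 15 genes were called whichever of the 14 libraries was left out, and they are named here because of it, after their values were seen. The higher genes among them were Fam160a1, Polr2a and Atl3. Polr2a, the largest subunit of RNA polymerase II, lay at 76.2, 84.8 and 99.2 CPM in KO and 55.7, 62.0 and 68.6 CPM in WT. These groups did not overlap (log2 fold change 0.47, SE 0.066, edgeR adjusted p = 0.00558). Atl3, an atlastin that shapes the endoplasmic reticulum, rose by 0.41 (SE 0.063, adjusted p = 0.00921). Fam160a1 (chromosome 3, 85660061 to 85817291) rose most but for Cdkn1c among genes called with a mean of at least 5 CPM. It lay at 6.97, 10.1 and 13.6 CPM in KO and 3.85, 4.56 and 7.42 CPM in WT, and the groups overlapped by 1 library at each edge (log2 fold change 1.11, SE 0.15, edgeR adjusted p = 0.00513).

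The lower genes of that set were Agmat, Stat4, Rgs10, Pkp4, S100a1, Wwc2, Ccnd2, Alox8, Ccer2, Atmin, Derl3 and Ltbp3. For all 12 the KO and WT libraries were separate, beside 104 of the 223 calls and 1.02% of all genes tested. The set was chosen for calls that hold without any 1 library, which favours separate groups, so this is no independent evidence. Pkp4, a plakophilin of cell junctions, lay at 112.2, 131.0 and 135.7 CPM in KO and 152.2, 174.9 and 205.5 CPM in WT (log2 fold change −0.49, SE 0.071, edgeR adjusted p = 0.00857). Atmin, a transcription factor of the DNA damage response, lay at 80.0, 96.9 and 117.1 CPM in KO and 130.2, 139.1 and 165.5 CPM in WT (−0.56, SE 0.090, adjusted p = 0.0117). Stat4, a cytokine-activated transcription factor, was low in both groups, at most 1.36 CPM in KO and at least 2.43 CPM in WT, and fell by 1.56 (SE 0.16, adjusted p = 1.80e-04). Agmat, a mitochondrial enzyme related to agmatinase, was at most 0.985 CPM in KO and at least 2.22 CPM in WT and fell by 1.76 (SE 0.14, adjusted p = 1.04e-05). In the fit without C3, C18 and C19, the genes of this set that were still called were Fmr1, Agmat, Stat4, Fam160a1, Ccnd2 and Alox8. The other 10 had adjusted p of 0.0540 to 0.0883 there.

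Of 20 cyclins and CDK inhibitors tested, 1 rose, 1 fell and 18 did not pass, with a median of −0.03. The calls were 10.0% of the list, beside 1.38% of all genes. Cdkn1c (chromosome 7, 143458339 to 143461050), an imprinted gene whose product p57 inhibits cyclin-dependent kinases, showed the largest rise of any gene called at a mean of at least 5 CPM. It lay at 12.2, 13.3 and 16.3 CPM in KO and at 1.79, 6.41 and 10.7 CPM in WT, with no overlap (log2 fold change 1.13, SE 0.26, edgeR adjusted p = 0.0499). The lowest WT value belonged to C24, and without that library the adjusted p was 0.00899. In the other 13 leave-one-out fits Cdkn1c was not called, with an adjusted p of up to 0.134. Ccnd2 (chromosome 6, 127125162 to 127152193), cyclin D2, lay at 32.9, 43.6 and 46.7 CPM in KO and 50.9, 76.5 and 92.9 CPM in WT. The groups were separate here too (−0.84, SE 0.12, adjusted p = 0.00921), and without C3, C18 and C19 the fold change was −0.90 (adjusted p = 0.0338).

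Lists of cAMP signalling genes and of receptors held 1 call each. In the list of 48 cAMP and EPAC genes the call was 2.08%, beside 1.38% of all genes. The median log2 fold change was −0.01, beside −0.00 over all genes. Sphkap (chromosome 1, 83254139 to 83408200), an anchoring protein for cAMP-dependent protein kinase, lay at 110.8, 181.9 and 217.7 CPM in KO and 74.5, 93.5 and 132.0 CPM in WT. It rose by 0.80 (SE 0.16, edgeR adjusted p = 0.0355), although KO libraries C5 and C6 lay within the WT range. Among 27 receptors for monoamines and acetylcholine, only Adra2a was called (3.70% of the list). This receptor, the alpha-2A adrenergic receptor that couples to inhibitory G proteins, rose by 0.56 (SE 0.13, adjusted p = 0.0456), from a WT median of 17.9 CPM to 24.9 CPM. KO C4, C7 and C14 lay below its highest WT value of 22.8 CPM. The gamma subunit gene Gng4 went from a WT median of 37.7 CPM to 58.4 CPM, a rise of 0.54 (SE 0.12, adjusted p = 0.0491). For Gng4, KO C5 and C6 (38.5 and 44.5 CPM) lay within the WT range of 29.2 to 45.7 CPM.

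RGS proteins shorten G protein signals by speeding GTP hydrolysis. Of 18 tested, 2 fell and none rose, and 13 of 18 fold changes were negative (median −0.10). The calls were 11.1% of the list, beside 0.768% called lower and 49.7% positive over all genes. Rgs10 lay at 6.24, 6.60 and 7.16 CPM in KO and 9.12, 10.5 and 12.9 CPM in WT, with no overlap (−0.69, SE 0.094, edgeR adjusted p = 0.00558). Rgs16 lay at 3.20, 4.41 and 6.04 CPM in KO and 5.81, 8.81 and 11.2 CPM in WT, with a small overlap (−0.92, SE 0.17, adjusted p = 0.0237). When C3, C18 and C19 were left out, the adjusted p was 0.0540 for Rgs10 and 0.130 for Rgs16.

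Synaptic and channel lists held at most 1 call each. Of 46 genes of vesicle release, Cplx1 was the only call (2.17% of the list, beside 1.38% of all genes). It encodes complexin 1, which clamps and triggers fusion of synaptic vesicles, and lay at 384.2, 509.5 and 584.5 CPM in KO and 585.0, 685.6 and 928.3 CPM in WT. The groups touched without overlapping (−0.52, SE 0.11, edgeR adjusted p = 0.0413). The highest WT values were those of C18 and C19, and without C3, C18 and C19 the fold change was −0.43 (adjusted p = 0.113). None of 49 voltage-gated potassium channel genes, 53 genes of glutamate receptors and the postsynaptic density or 24 genes of the GABA synapse passed. Their medians were −0.08, 0.04 and −0.05. Camk2n1, an inhibitor of CaMKII and the postsynaptic gene with the smallest p, had a fold change of −0.40 (adjusted p = 0.0602).

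**Figure D3:**
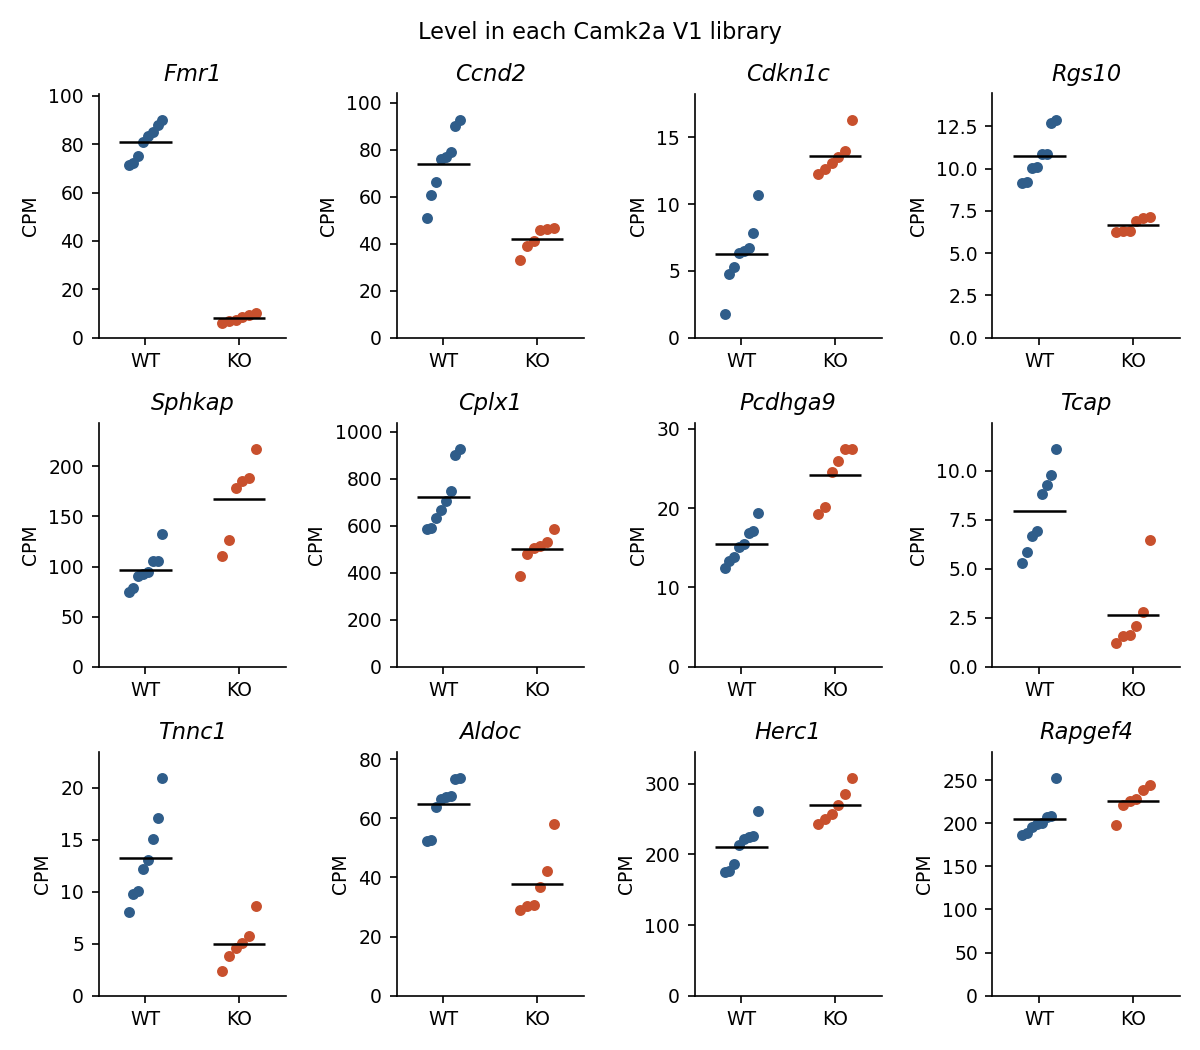
Each panel plots the CPM of 1 gene in the 8 WT and 6 KO libraries, with the mean as a line. Fmr1, Ccnd2, Cdkn1c and Rgs10 separate the genotypes, while Sphkap, Tcap, Herc1 and Rapgef4 overlap.

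The gamma protocadherins, cell-surface adhesion proteins from a single gene cluster that help neurons recognise themselves, held more than a single call. Of 22 members tested, 5 (22.7%) were called higher and none lower, and 21 fold changes were positive, with a median of 0.32. Over all genes tested, 0.613% were called higher and 49.7% were positive. Per library, the list's median log2 ratio to the WT mean ran from 0.06 to 0.54 in KO and from −0.18 to 0.25 in WT. The groups overlapped, as KO C3, C5 and C6 lay below WT C24. Pcdhga9 lay at 19.3, 25.3 and 27.5 CPM in KO and 12.5, 15.3 and 19.4 CPM in WT (0.66, SE 0.11, edgeR adjusted p = 0.0117). A single KO library lay below the highest WT value. Pcdhgb7 lay at 12.6, 14.2 and 21.2 CPM in KO and 8.20, 9.72 and 11.6 CPM in WT and did not overlap (0.67, SE 0.11, adjusted p = 0.0176). Pcdhga10, Pcdhga8 and Pcdhgb5 rose by 0.48, 0.56 and 0.56. Members share their last exons, so the estimated counts split reads between them, and the 5 calls are not independent. Leaving out C3, C18 and C19, the list median was 0.30 and Pcdhga9 was still called (adjusted p = 0.0350), whereas Pcdhgb7 was not (adjusted p = 0.0703). The 21 beta protocadherins of the neighbouring cluster, listed after the data were seen, all had positive fold changes (median 0.16), and Pcdhb13 was called. Of 14 alpha protocadherin entries, also listed afterwards, 9 were positive (median 0.07) and Pcdha11 was called.

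Commonly cited FMRP target mRNAs had small and mostly positive fold changes. Of 93 tested, 77 fold changes were positive and the median was 0.11, while 49.7% of all genes were positive. Only Apc2 and Herc1 passed (2.15% of the list, beside 1.38% of all genes). Herc1, a giant HECT ubiquitin ligase, lay at 243.3, 263.6 and 308.6 CPM in KO and 175.0, 217.4 and 261.9 CPM in WT (0.37, SE 0.088, edgeR adjusted p = 0.0499). The highest WT library was C24. Apc2, a microtubule-binding relative of the APC tumour suppressor, lay at 140.7, 167.9 and 184.3 CPM in KO and 117.7, 130.2 and 155.9 CPM in WT (0.31, SE 0.073, adjusted p = 0.0499). For both genes the groups overlapped. The list as a whole overlapped too: per library, its median log2 ratio to the WT mean was −0.14 to 0.27 in KO and −0.14 to 0.15 in WT.

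Fold changes varied with the length of the coding sequence. The median was −0.11 for the 1120 genes with under 500 coding bases and was higher in each longer class, at −0.04, 0.02, 0.03, 0.07 and 0.15 in the 162 genes with 8000 or more. Of the calls, 19 of 96 higher and 3 of 118 lower genes with a known coding length had 4000 bases or more, against 7.5% of all genes tested. The median coding length was 2477 bases for higher, 1127 for lower and 1425 for all genes tested. FMRP targets were long, with a median of 6501 bases. The 74 targets with 4000 or more coding bases had a median fold change of 0.15, with 68 positive. The 19 shorter targets had a median of −0.01, with 9 positive, and 963 other genes of 4000 bases or more had a median of 0.08, with 65.6% positive. The length relation also differed between libraries of a genotype. The median log2 ratio of genes of 4000 bases or more, minus that of genes under 1000 bases, ran from −0.19 to 0.37 in KO and from −0.15 to 0.15 in WT. The KO library C6 had the lowest value of all 14, and C4, C14 and C7 the highest. The part of these library differences in the shift of the FMRP targets was not tested.

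**Figure D4:**
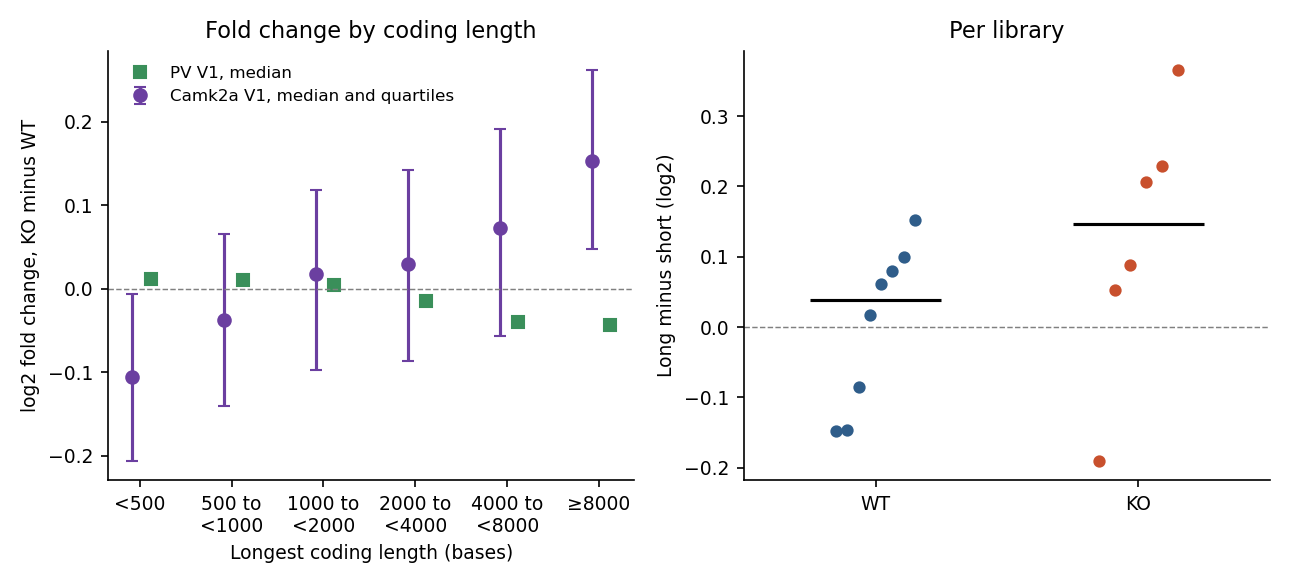
The left panel gives the log2 fold change (KO minus WT) by class of longest coding length, as median and quartiles for Camk2a V1 and as median for PV V1. The right panel gives, per library, the median log2 ratio of genes of 4000 bases or more minus that of genes under 1000 bases, with the group median as a line; the groups overlap.

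Genes of the ribosome and of mitochondrial respiration had mostly negative fold changes. Of 79 cytosolic ribosomal protein genes, 72 fold changes were negative (median −0.11) and none passed. Of 75 nuclear-encoded oxidative phosphorylation genes, 65 were negative (median −0.12) and 1 was called, the complex I subunit Ndufa1, which fell by 0.36 (SE 0.085, edgeR adjusted p = 0.0491). The 13 mitochondrially encoded genes had a median of −0.03 and none was called. C6 went against the other KO libraries here: its per-library list median was 0.12 for ribosomal proteins and 0.22 for oxidative phosphorylation, against −0.26 to −0.06 and −0.36 to −0.04 in the other 5 KO libraries. In WT libraries these list medians ran from −0.12 to 0.17 and from −0.14 to 0.09. KO C3 and C5 lay within both WT ranges. Without C6 the fitted medians were −0.16 and −0.20. With all libraries both medians lay near the −0.11 of genes with under 500 coding bases, and the part of coding length was not tested. Among 62 chromatin regulators, 47 fold changes were positive (median 0.09), and Setd2, the histone H3 lysine 36 methyltransferase, was called (0.40, SE 0.088, adjusted p = 0.0419). For Setd2, KO C5 and C6 (69.3 and 66.6 CPM) lay within the WT range, which reached 69.9 CPM. Of 20 aminoacyl-tRNA synthetases, which charge tRNAs with amino acids, 18 were positive (median 0.11), and Cars, the cysteine enzyme, was called (0.34, SE 0.077, adjusted p = 0.0442).

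Fold changes of genes of cholesterol synthesis and handling were mostly negative. Of 30 tested, 24 fold changes were negative (median −0.18) and 1 was called. Stard4, a sterol carrier under control of SREBP, lay at 18.7, 19.4 and 24.9 CPM in KO and 22.7, 31.4 and 33.2 CPM in WT (−0.50, SE 0.10, edgeR adjusted p = 0.0355). The groups overlapped slightly.

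Activity-regulated genes, which neurons induce within minutes to hours of synaptic stimulation, had mostly negative fold changes, but none passed. Of 35 tested, 30 fold changes were negative and the median was −0.45. The per-library list median was −0.87 to −0.32 in 5 KO libraries and 0.48 in KO C14, while WT libraries ran from −0.50 to 0.74. The groups therefore overlapped widely. The smallest p belonged to Maff, a small MAF transcription factor, at a median of 0.091 CPM in KO and 0.398 CPM in WT (log2 fold change −2.20, edgeR adjusted p = 0.0601, and 0.0456 without C24). Next came Per1, a clock gene induced by cAMP (−0.45, adjusted p = 0.183). Larger changes of more abundant members, named after their values were seen, were those of Egr2 (−1.17, adjusted p = 0.305) and Fosb (−0.93, adjusted p = 0.423). Many such genes carry the cAMP response element, to which CREB binds. Its full palindrome, TGACGTCA, reads the same on both strands. It was found between 250 bases before and 50 after a RefSeq start in 4 of 27 list members with a promoter entry (14.8%), against 3.49% of 11498 tested genes with one. Those members were Btg2, Dusp1, Maff and Pcsk1. The stretches around the element of Maff and of the prohormone convertase Pcsk1 (log2 fold change −0.53, adjusted p = 0.436) are shown to let the element be seen in its place, with the palindrome in capitals, from RefSeq on GRCm38.p6, plus strand, 5′ to 3′. They lie upstream of the start at chr15:79347431-79347519 and chr13:75089719-75089846.
Maff: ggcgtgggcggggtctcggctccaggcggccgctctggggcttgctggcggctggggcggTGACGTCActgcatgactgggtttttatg
Pcsk1: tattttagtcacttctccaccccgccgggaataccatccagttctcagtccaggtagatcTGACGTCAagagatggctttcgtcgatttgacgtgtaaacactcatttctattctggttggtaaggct
The element began 29 bases before the start in Maff and 78 bases before it in Pcsk1. A match of letters is a description and no measure of binding.

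Genes best known from striated and smooth muscle formed the list with the largest downward median apart from the PV markers. Of 26 listed, 19 were in the table and 15 were tested, and 3 fell, none rose and 11 fold changes were negative (median −0.77). Calls made up 20% of the tested members, beside 0.768% called lower among all genes. Tcap, a titin cap protein, lay at 1.22, 1.85 and 6.44 CPM in KO and 5.30, 7.85 and 11.1 CPM in WT. Only KO C3 lay within the WT range (−1.73, SE 0.33, edgeR adjusted p = 0.0321), and without C3, C18 and C19 the fold change was −1.93 (adjusted p = 0.00334). Tnnc1, slow skeletal and cardiac troponin C, lay at 2.34, 4.79 and 8.59 CPM in KO and 8.06, 12.7 and 21.0 CPM in WT (−1.41, SE 0.28, adjusted p = 0.0374). Without C3, C18 and C19 the fold change of Tnnc1 was −1.31 and it was not called (adjusted p = 0.177). Tpm1, a tropomyosin also present in neurons, lay at 226.1, 241.1 and 256.5 CPM in KO and 260.6, 283.8 and 299.5 CPM in WT, with no overlap (−0.22, SE 0.052, adjusted p = 0.0491). Per library, the list median ran from −0.57 to −0.27 in KO and from −0.13 to 0.17 in WT, so that all KO libraries lay below all WT libraries. The list was chosen with earlier results of these data known, so this separation and the share of calls are no independent evidence. Tagln, a smooth muscle protein counted with the vascular markers, was at most 0.502 CPM in KO and at least 0.572 CPM in WT and fell by 2.21 (SE 0.39, adjusted p = 0.0195). It was the only call among 14 vascular markers tested, which had a median of 0.05 and summed to 9.79 to 15.2 CPM in KO and 10.7 to 16.5 CPM in WT.

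**Figure D5:**
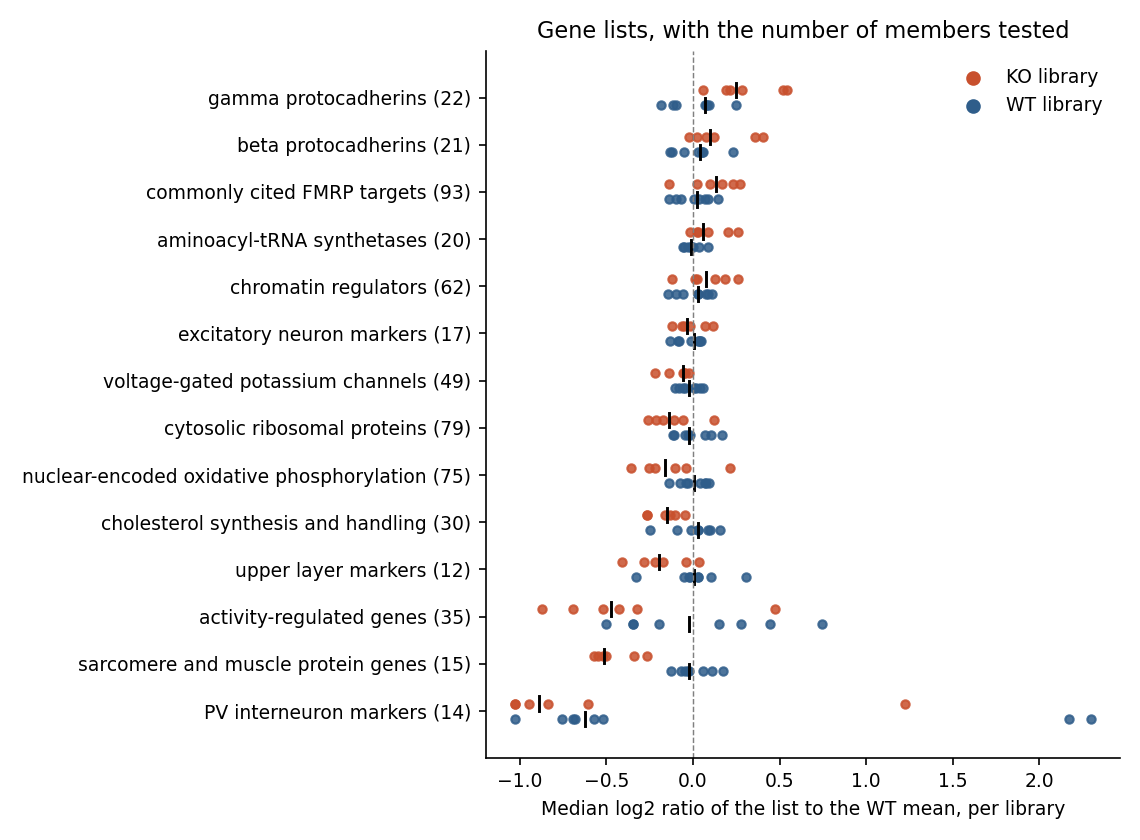
Each point is the median log2 ratio to the WT mean over the members of a list in 1 library, with WT and KO libraries in separate rows and the group median as a line. The muscle list, chosen with earlier results of these data known, separates the genotypes. The gamma protocadherins have a higher group median in KO, but the groups overlap. The 3 points to the right among PV markers are C3, C18 and C19.

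Markers of other cells were read as a check. Among 19 astrocyte markers, 2 fell, 10 fold changes were positive and the median was 0.01. The calls were 10.5% of the list, beside 0.768% called lower among all genes. Aldoc, aldolase C, lay at 29.0, 33.7 and 58.0 CPM in KO and 52.4, 66.9 and 73.7 CPM in WT (−0.78, SE 0.15, edgeR adjusted p = 0.0320). Aldh1l1, a folate enzyme used to mark astrocytes, lay at 18.7, 23.8 and 28.1 CPM in KO and 28.2, 32.1 and 39.6 CPM in WT (−0.46, SE 0.099, adjusted p = 0.0388). The astrocyte list summed to 1192 to 1456 CPM in KO and 1141 to 1479 CPM in WT. The 17 oligodendrocyte markers had a median of −0.15 with none called. The 14 PV markers all had negative fold changes (median −1.15, none called), and summed to 268 to 849 CPM in KO and 308 to 1651 CPM in WT. Their median was −0.08 without C3, C18 and C19. The remaining marker lists had no call: their medians were −0.01 for 17 excitatory, −0.02 for 15 other interneuron, 0.23 for 10 oligodendrocyte precursor, 0.08 for 14 microglia and −0.23 for 3 red blood cell markers. Upper layer markers had 11 of 12 negative fold changes (median −0.21) and deep layer markers a median of 0.02, with none called in either. Without C24 these medians were −0.12 and −0.02.

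Among the other lists, Hspa2, a heat shock protein of the HSP70 family, rose by 0.38 (SE 0.079, edgeR adjusted p = 0.0344) and was the only call among 34 stress response genes. No call fell among 18 neuropeptide precursors, 12 perineuronal net genes, 31 proteasome subunits or 11 genes of the WAVE actin complex, whose medians were −0.09, 0.12, 0.04 and −0.03.

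Further genes with large changes at a mean of at least 5 CPM followed no list. Among the higher ones, Zfp518a, a zinc finger gene, rose by 0.79 (SE 0.15, edgeR adjusted p = 0.0290), Smg6, an endonuclease of nonsense-mediated decay, by 0.60 (adjusted p = 0.0351), Wdr81, a regulator of endosomes, by 0.52 (adjusted p = 0.0117), and Pxdn, peroxidasin of the extracellular matrix, by 0.52 (adjusted p = 0.0499). KO C6 lay within the WT range for Zfp518a, Smg6 and Pxdn, at 4.43, 23.5 and 22.6 CPM, while Wdr81 did not overlap. Nwd2 rose by 0.56. In KO libraries Nwd2 lay either at 52.4 to 54.0 CPM (C5 and C6) or at 80.6 to 87.5 CPM (the other 4). In WT libraries it lay at 43.3 to 64.9 CPM. Among the lower ones, Ccn4, a matricellular target of WNT signalling, fell by 1.43 (SE 0.25, adjusted p = 0.0195) with no overlap, Cd6 by 0.94 (adjusted p = 0.0388), Zfp423 by 0.92 (adjusted p = 0.0355), Epha8, an ephrin receptor, by 0.82 (adjusted p = 0.0305) and Ltbp3, which binds latent TGF-beta, by 0.60 (adjusted p = 0.0117).

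The Camk2a V1 effect was set beside that in PV interneurons of V1, which came from 20 other animals. In PV V1, 36 of 16635 genes (0.216%) were called. Leaving out Fmr1, 215 of the genes called in Camk2a V1 were tested in PV V1, and 170 of them (79.1%) had the same sign there, against 58.5% of all 15568 genes tested in both. Their effects in PV were small, with a median of 0.07 for the higher and −0.11 for the lower genes, and 4 were called in both: Cd99l2, Atmin, Arhgap35 and Irf4. Arhgap35, a GTPase-activating protein, fell by 0.30 (edgeR adjusted p = 0.0436) in Camk2a V1 and by 0.27 (adjusted p = 0.0434) in PV V1. Medians by coding length went the other way in PV, from 0.01 under 500 bases to −0.04 at 8000 or more. The FMRP target and gamma protocadherin lists had medians of −0.04 and 0.04 there.

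The difference of the genotype effect between the classes was called for 16 of 17377 genes (0.0921%), and 13 of them were among the 223. Fmr1 fell by 1.27 log2 units more in Camk2a neurons (SE 0.14, edgeR adjusted p = 3.22e-06). Alox8, a lipoxygenase gene, Ccn4 and Ltbp3 had differences of −1.48, −1.31 and −0.58 (adjusted p = 0.00734 each), with PV effects of −0.28, −0.07 and −0.03. Galnt11, a glycosyltransferase, had a difference of −0.36 (adjusted p = 0.00734). Of the positive differences, Emsy, a chromatin-associated protein, stood at 0.64 (adjusted p = 0.0251), Sphk2, a sphingosine kinase, at 0.38 (adjusted p = 0.0328) and Wdr81 at 0.45 (adjusted p = 0.0468). In Camk2a V1, Emsy in KO C5 and C6 (57.0 and 55.1 CPM) lay within the WT range, which reached 58.2 CPM. With C3, C18 and C19 left out, the adjusted p was 0.00498 to 0.0401 for Alox8, Ccn4, Ltbp3 and Galnt11 and 0.0797 to 0.211 for Emsy, Sphk2 and Wdr81. In the library labelled female of PV KO animal P11, Ddx3y stood at 50.9 CPM, against its label.

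The Camk2a S1 libraries come from the same animals for 13 of the 14, so values are given side by side only. In Camk2a S1, 627 of 16176 genes (3.88%) were called. This fit holds the S1 library of C24, which lies on the V1 side of the area score and is the only one of the series' libraries labelled Batch 2, and without it 1609 genes were called. With it, Fmr1 had a fold change of −3.15 there, Ccnd2 −0.79, Cdkn1c 1.27, Sphkap 0.77, Tcap −1.29, Pcdhga9 0.74 and Cplx1 −0.34, beside −3.31, −0.84, 1.13, 0.80, −1.73, 0.66 and −0.52 in V1. The last of these was not called in S1 (edgeR adjusted p = 0.305), and the others were. Of the 223 genes called in V1, 222 were tested in S1 and 118 were called there. Fam160a1, Rgs10, Derl3 and Ltbp3, called in V1 whichever library was left out, were not called in S1 (edgeR adjusted p = 0.0531 to 0.126). Taken within animals, the difference of the genotype effect between V1 and S1 was called for none of 16826 genes (0%) by edgeR, with 1159 at an unadjusted p under 0.05. With limma-voom and the animal as a random block 1 gene passed, Zc3hav1, named after its value was seen. Without C24, whose V1 and S1 libraries lie on the opposite sides of the area score and carry different batch labels, none passed by edgeR.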

How the data were processed

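The authors deposited estimated counts of reads per gene, 1 column per library and not normalized; 71.1% of the values had a fractional part. STAR, Salmon, limma and mm10 are named in the submitters' processing notes; their versions, and the annotation, are not given in the sources used here. Identifiers were matched to GENCODE M21, which named 17614 of 17634 genes. Groups came from the labels. Counts were rounded and filtered with filterByExpr. TMM factors and edgeR 4.0.16 (R 4.3.3), a robust quasi-likelihood fit with sex by label as covariate, gave Benjamini-Hochberg adjusted p over all genes tested; called means under 0.05. The class difference was an interaction term over V1 libraries; the area difference used the animal as a block. limma 3.58.1 and DESeq2 1.42.0 were alternatives. Fits were tested on simulated data. CPM are normalised by TMM over the 14 libraries unless stated. List ratios used a pseudocount of 0.5 CPM. Lists are described by counts and medians, without a test.

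Members and the 37 gene lists were chosen with earlier results of these data known; 16 list genes were not matched and a further 18 were below the count filter; neither were analysed here. A few results are not reported here. Lists of alpha and beta protocadherins were added afterwards. Named genes were Fmr1, Rapgef4, the 15 largest called changes per direction at a mean of at least 5 CPM, up to 3 called members per list and direction, or else the 2 with the smallest p, and up to 5 class-difference genes per direction; the text names some of these, and others where stated. KO and WT animals share no replicate number. The libraries hold 37.4 to 49.1 M estimated counts, and precision is given by the spread between animals.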

Additional observations from a re-analysis of the deposited data

Results flagged for a closer look

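Single libraries lay apart from the rest of their group, with a gap to the next library that is large for the group's range, in 6 values of named genes. Chance gives such a gap in about 1 in 20 groups, and 106 groups were looked at. In the KO group, C3 was high for Tcap (6.44 CPM) and Zfp423 (7.44 CPM). In the WT group, C24 was high for Cars (43.1 CPM) and Rapgef4 (252.8 CPM), C20 was high for Nwd2 (64.9 CPM), and C16 was low for Pcdhga8 (11.2 CPM). The PV marker score of KO library C3 (4.82) stood apart in the same way.

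The genotype effect differed between Camk2a and PV neurons of V1, by edgeR's interaction test, for 13 genes called in Camk2a V1. Among them, the differences (Camk2a minus PV, log2) were −1.27 for Fmr1, −0.36 for Galnt11, −1.31 for Ccn4, −1.48 for Alox8, −0.58 for Ltbp3, −0.34 for Wwc2, −0.41 for Inpp5f, 0.64 for Emsy, −0.59 for Dhdh, 0.38 for Sphk2, −0.60 for Ankrd29 and 0.45 for Wdr81. Without C3, C18 and C19, those of Inpp5f, Emsy, Dhdh, Sphk2, Ankrd29 and Wdr81 no longer passed, with adjusted p of 0.0797 to 0.211.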

How the results depend on the processing

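The count of 223 genes called in Camk2a V1 was 845 with DESeq2 and 864 in a fit of all 69 libraries, 10 with females only, 15 without C3, C18 and C19, and ranged from 20 to 456 when 1 library was left out. In fits added after seeing the data it was 10 without C16 and C23, 387 without C24 with sex read from Ddx3y, 24 without C3, C18, C19 and C24, and 3 without C4 and C5, which leaves 4 KO libraries; the Camk2a S1 count went from 627 to 1609 without the C24 library. Other scalings, covariates and filters gave 162 to 288. The upper quartile scaling gave 125 higher and 119 lower genes, against 99 and 124. All 50 named calls kept their direction under all 30 alternatives, and 842 of 1500 such values kept the call; the cause of the lost calls was not tested, and fits with fewer libraries test with fewer samples. Fmr1 kept it throughout, and Fam160a1 in all but the fit without C4 and C5 (adjusted p = 0.0611). The median of the FMRP targets was 0.05 to 0.18 over these alternatives, that of the gamma protocadherins 0.20 to 0.39, that of the muscle genes −0.85 to −0.58 and that of the activity-regulated genes −0.70 to −0.29. The class difference was called for 52 genes with DESeq2 and 11 to 16 otherwise. The area difference was called for 0 genes with the animal as a block and 0 with no block; with limma-voom and the animal as a random block it was 1 gene. KO and WT animals share no replicate number, so no pairing applies to the genotype comparison.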
